A study of Rattus norvegicus with 6 samples.

Results

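The genes described here are markers of injured and dedifferentiated renal tubules, 36 genes chosen by symbol, of which 35 had at least 1 probe on the array out of 45433 genes or accessions with a probe. Probes were assigned by accession to rat RefSeq symbols. Of the 35, 34 were tested among the 29938 genes tested. The transcription factor gene Sox9 had no probe assigned here, and Krt20, which encodes keratin 20, was not well above background on any of the 6 arrays and was not tested.

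When tubular epithelial cells are damaged, they lose features of the mature cell, reorganise their filaments and membranes, and make secreted and surface proteins that are low in the healthy tubule. Kim-1 (encoded by Havcr1), neutrophil gelatinase-associated lipocalin (Lcn2), clusterin (Clu), osteopontin (Spp1), trefoil factor 3 (Tff3) and cystatin C (Cst3) are widely used as indicators of kidney damage in rats. That use does not mean that each transcript rises in the injured tubule, and no direction is assumed here for Tff3 or Cst3. Epidermal growth factor (Egf), made by the distal nephron, and regucalcin (Rgn) are genes of the differentiated tubule that are known to be lost with injury.

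Renal cortex RNA came from 3 male Sprague-Dawley rats given phenylbutazone at 200 mg/kg/day for 4 weeks and from 3 given corn oil, here called vehicle, for the same time. All were purchased at 5 weeks of age and kept on a basal diet with tap water. Phenylbutazone inhibits cyclooxygenases and belongs to the non-steroidal anti-inflammatory drugs, which are known for effects on the kidney, and the study's question was which transcripts of the cortex differ after repeated dosing. Each animal was measured on its own one-colour Agilent array, and the series design calls the 3 samples of each group biological replicates.

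Values below are log2 levels, in which 0 is the intensity that 75% of the probes on that array lie below, so that 1 unit is a 2-fold change. Errors after ± are standard errors of the phenylbutazone minus vehicle difference (n = 3 per group) unless SD is written. The 75th percentile intensity lay between 891 and 974 in phenylbutazone arrays and between 921 and 1003 in vehicle arrays. Phenylbutazone 1, 2 and 3 and vehicle 3 shared slide 2, and vehicle 1 and 2 shared slide 1, which had another scan time. On the first principal component over all genes tested, vehicle 3 stood at -52.3, the phenylbutazone arrays between -18.9 and -1.10, and vehicle 1 and 2 at 41.2 and 36.3. Differences against vehicle 3 alone, the only comparison within 1 slide, are therefore shown for every tested member in the plot of differences and given in the text for many of them. All 18 proximal tubule markers and all 7 podocyte markers examined passed the background filter used for testing, which asked for a signal well above background on at least 3 of 6 arrays. Because the whole cortex was homogenised, fewer cells of a type and less RNA per cell cannot be told apart.

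Most members were higher in the phenylbutazone group, by amounts that did not pass the test for any single gene. The member list was chosen with earlier results of these data known, so its shares beside all genes are descriptions only. Of the 34 members tested, 30 had a higher mean in phenylbutazone and 4 a lower one, with a median log2 difference of 0.33, beside 52.8% of all genes higher and a median of 0.015 over all genes. With limma and Benjamini-Hochberg adjustment over all genes 0 members passed at 0.05, as did 0% of all genes, and the members' adjusted p ranged from 0.208 to 0.977. At an unadjusted p under 0.05 there were 12 members, 35.3% of those tested, beside 12.2% of all genes. All 12 were higher in phenylbutazone, a direction that 5.97% of all genes had at that threshold. In 13 members (38.2%) the lowest phenylbutazone animal lay above the highest vehicle animal, which held for 12.1% of all genes, and 21.5% of all genes were free of overlap in either direction. The 4 members at least 2-fold higher were Spp1, Fgg, Krt18 and Clu, a size reached by 0.815% of all genes. Fgg was mostly not well above background in vehicle animals and so passed the filter through the group where it is high. Without it the counts over 33 members were 11 at an unadjusted p under 0.05, 12 free of overlap and 3 at least 2-fold higher.

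These shares depended on how the slide was treated. Against vehicle 3 alone 31 of 34 members were higher, beside 55.4% of all genes, and their median difference was 0.67. In 31 of 34 members, higher or lower, vehicle 3 lay outside the range of the treated animals, as it did in 72.6% of all genes. With slide as a fixed block the count at an unadjusted p under 0.05 was again 12 members, but 31.6% of all genes reached it too, so that the members' share of 35.3% lay near the background. With slide as a random block 14 members reached it (41.2%), beside 20.1% of all genes. Without vehicle 3, which leaves no slide with both treatments, 11 members reached it (32.4%), beside 22.0% of all genes, and 25 of 34 members were higher (73.5%), beside 49.5% of all genes. Under the same omission 15 of 34 members (44.1%) were free of overlap, beside 43.7% of all genes, a share at the background.

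**Figure D1:**
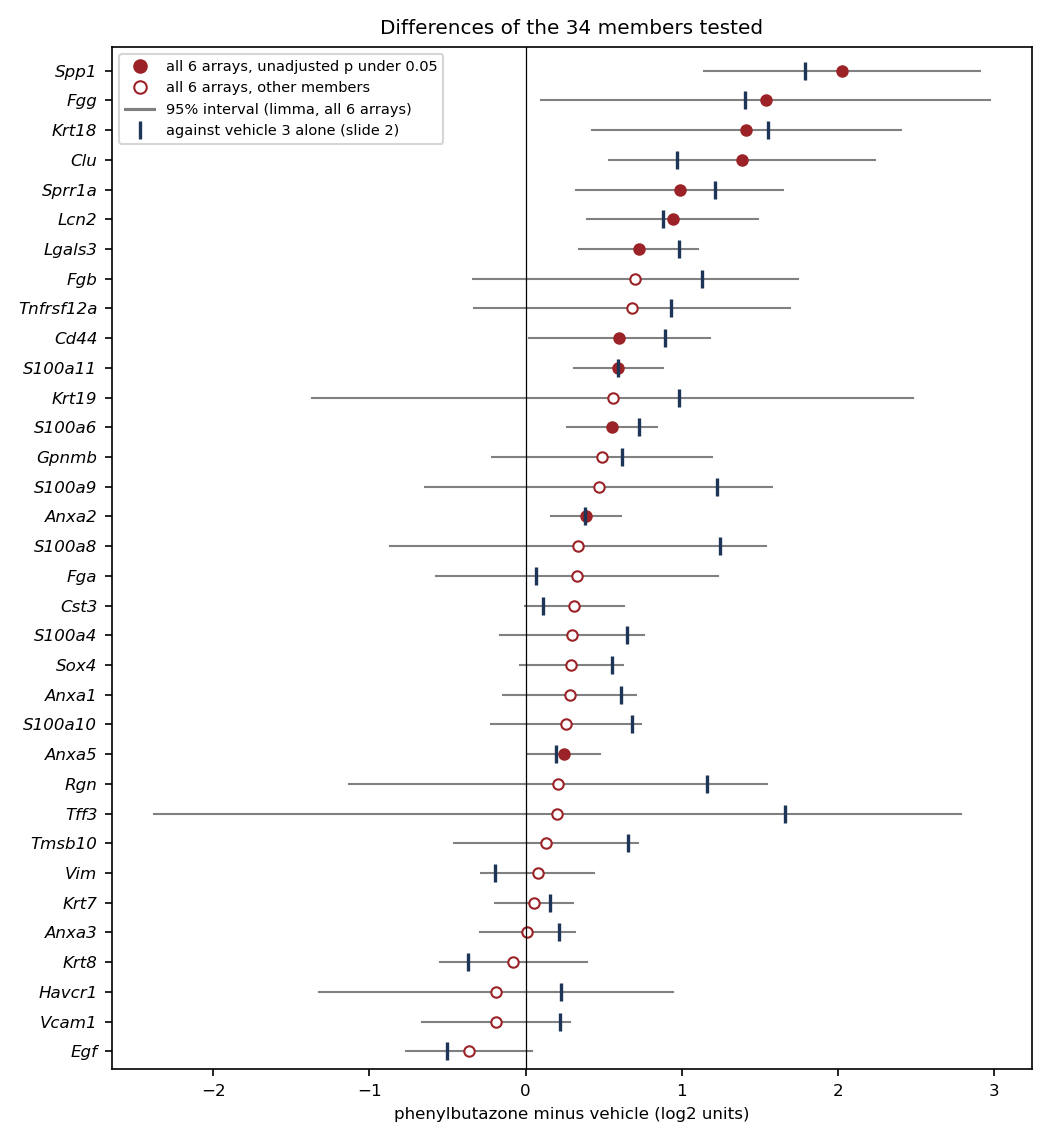
Log2 differences (phenylbutazone minus vehicle, horizontal axis) of the 34 members tested, sorted from highest to lowest. Circles use all 6 arrays (3 per group) with 95% limma intervals as lines, filled circles mark an unadjusted p under 0.05, and blue ticks are the difference against vehicle 3 alone. Spp1 stands highest at 2.02 and Egf lowest at -0.36.

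The secreted markers divided into a group that was higher in every treated animal and a group that was not. Spp1, which encodes osteopontin, a secreted phosphoprotein made by the injured tubule and the thick limb, had levels of 5.20, 4.14 and 5.41 in phenylbutazone 1, 2 and 3, against 2.497, 3.06 and 3.13 in vehicle 1, 2 and 3. All 3 treated animals lay at least 1.01 units above the highest vehicle animal, the widest gap of any member. The difference of 2.02 ± 0.36, 4.07-fold, had a limma adjusted p of 0.208, and was 1.79 against vehicle 3.

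Clu, which encodes the secreted chaperone clusterin, had levels of 3.75, 4.21 and 4.97 in phenylbutazone 1, 2 and 3, against 2.86, 2.57 and 3.34 in vehicle 1, 2 and 3. The groups did not overlap, and the lowest treated animal stood closest to vehicle 3. The difference was 1.39 ± 0.35, 2.61-fold, with a limma adjusted p of 0.285, and a further Clu probe gave 1.41. Against vehicle 3 it was 0.97.

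Lcn2, whose product binds iron-loaded siderophores, had levels of -0.47, -1.17 and -0.34 in phenylbutazone 1, 2 and 3, against -1.63, -1.63 and -1.54 in vehicle 1, 2 and 3. The vehicle animals were nearly level with each other (SD 0.054), whereas the treated animals spread over a wider range (SD 0.45), with phenylbutazone 2 nearest to them. The difference was 0.94 ± 0.22, 1.92-fold (limma adjusted p = 0.275), and 0.88 against vehicle 3.

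Havcr1, which encodes the phagocytic receptor Kim-1 of the injured proximal tubule, did not follow these genes. Its levels were -4.56, -4.73 and -3.19 in phenylbutazone 1, 2 and 3, against -4.14, -3.40 and -4.39 in vehicle 1, 2 and 3, so that the highest and the 2 lowest values were all in treated animals. The difference of -0.19 had a 95% interval from -1.32 to 0.95 (limma adjusted p = 0.894) and changed sign against vehicle 3 (0.23), and that interval covers a fall as well as a rise of nearly 1 unit.

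Cst3, which encodes the protease inhibitor cystatin C, had levels of 6.46, 6.68 and 6.45 in phenylbutazone 1, 2 and 3, against 6.13, 6.11 and 6.42 in vehicle 1, 2 and 3. The groups were separated by only 0.036 units, between phenylbutazone 3 and vehicle 3. The difference was 0.31 ± 0.13 (limma adjusted p = 0.415) and 0.11 against vehicle 3.

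Egf, the growth factor precursor gene of the distal nephron, had levels of 5.10, 4.62 and 4.81 in phenylbutazone 1, 2 and 3, against 4.99, 5.28 and 5.35 in vehicle 1, 2 and 3. Phenylbutazone 1 lay inside the vehicle range and the other treated animals below it. The difference was -0.36 ± 0.17 (limma adjusted p = 0.447), with a further probe at -0.46 and -0.50 against vehicle 3.

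Tff3, which encodes a small secreted peptide of mucosal and tubular epithelium, had the widest spread of any member among the treated animals (SD 1.89), and only Krt19 spread more among vehicle animals. It stood at 1.56, 4.37 and 5.16 in phenylbutazone 1, 2 and 3, against 4.01, 4.44 and 2.03 in vehicle 1, 2 and 3. Phenylbutazone 1 and vehicle 3 were low, and the further Tff3 probe was low in the same animals. The mean difference of 0.20 had an interval from -2.38 to 2.79, and it was 1.66 against vehicle 3.

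**Figure D2:**
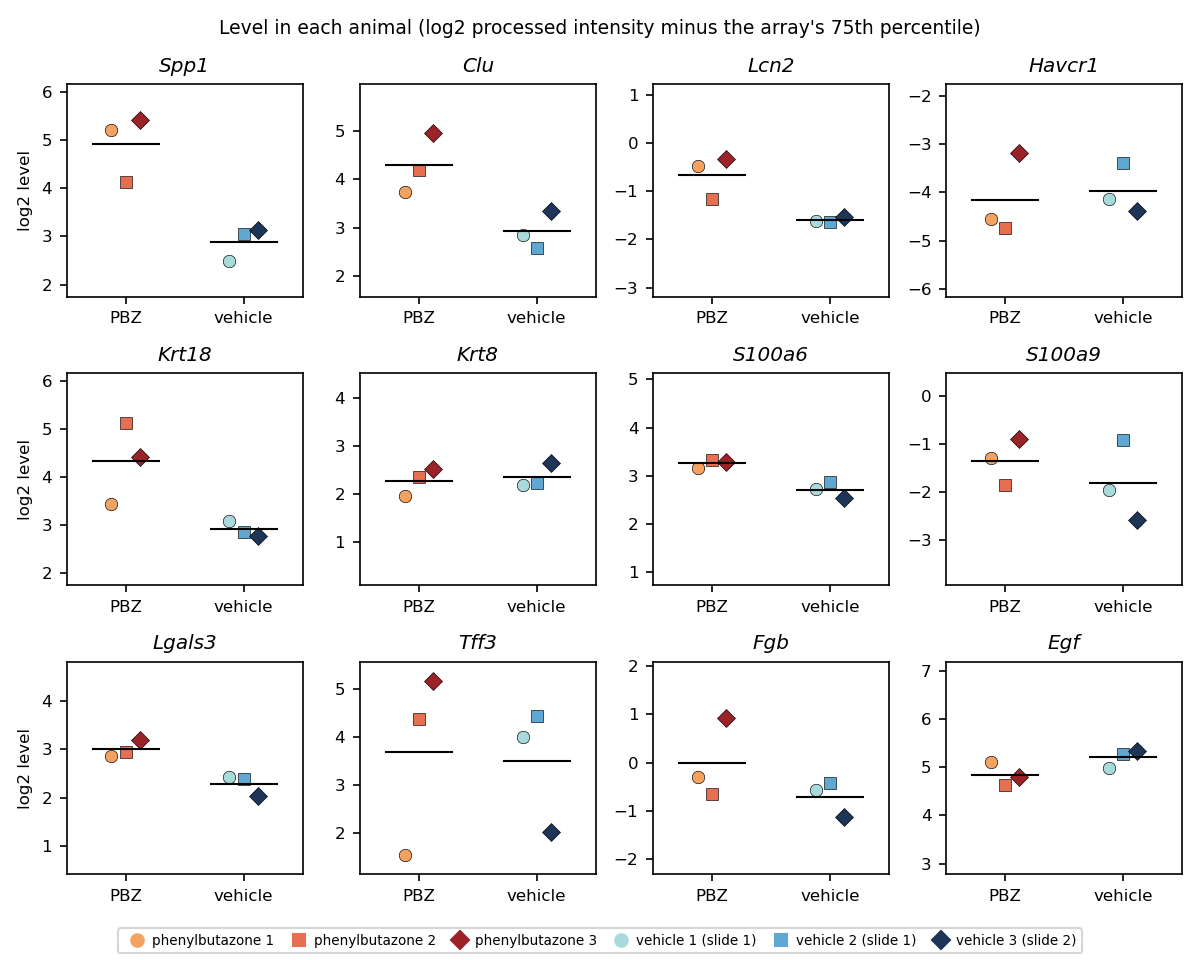
Levels of 12 members in each animal (vertical axis, log2 processed intensity minus the array's 75th percentile; each panel spans the same range of units), with phenylbutazone (PBZ) left and vehicle right and the group mean as a line. Spp1, Clu, Lcn2, Krt18, S100a6 and Lgals3 do not overlap between groups, while Havcr1, Krt8, S100a9, Tff3, Fgb and Egf do.

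The 250 bases before the start of 4 genes are printed. Spp1 and Lcn2 had the smallest unadjusted limma p of the secreted markers, although the difference of Clu was larger than that of Lcn2. Krt18 and Krt8, described next, are neighbours with unlike differences. Sequences are those of RefSeq on the assembly GRCr8, 5′ to 3′ on the strand of the gene, and 28 of the 36 members matched an entry. Capitals mark matches on either strand to TATAAA (the TATA box), TGANTCA (AP-1), TTCNNNGAA (STAT) or the kappaB consensus, with overlapping matches merged into 1 run of capitals.
Spp1, chr14:5619805-5620054, minus strand: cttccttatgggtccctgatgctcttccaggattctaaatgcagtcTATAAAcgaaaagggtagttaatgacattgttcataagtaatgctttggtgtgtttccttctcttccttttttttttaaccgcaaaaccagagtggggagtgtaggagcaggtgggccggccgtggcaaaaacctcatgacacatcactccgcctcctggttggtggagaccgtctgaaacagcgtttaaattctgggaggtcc
Lcn2, chr3:36081781-36082030, minus strand: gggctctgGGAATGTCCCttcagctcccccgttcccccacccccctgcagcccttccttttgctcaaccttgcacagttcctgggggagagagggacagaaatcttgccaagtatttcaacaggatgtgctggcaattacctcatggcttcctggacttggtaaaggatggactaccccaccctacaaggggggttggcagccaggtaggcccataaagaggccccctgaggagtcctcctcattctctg
Krt18, chr7:135035918-135036167, plus strand: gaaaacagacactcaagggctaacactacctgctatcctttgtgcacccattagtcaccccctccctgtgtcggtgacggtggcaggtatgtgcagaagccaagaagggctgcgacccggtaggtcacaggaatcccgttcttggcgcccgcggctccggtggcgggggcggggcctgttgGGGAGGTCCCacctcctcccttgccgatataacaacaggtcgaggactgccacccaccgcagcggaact
Krt8, chr7:135010340-135010589, minus strand: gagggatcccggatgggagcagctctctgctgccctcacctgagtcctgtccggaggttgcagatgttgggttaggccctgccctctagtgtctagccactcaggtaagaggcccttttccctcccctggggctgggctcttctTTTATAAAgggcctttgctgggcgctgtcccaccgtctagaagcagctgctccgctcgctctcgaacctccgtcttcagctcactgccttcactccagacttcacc

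In these windows the kappaB consensus, bound by NF-kB factors, was matched in Lcn2 and Krt18 and not in Spp1 or Krt8, and the TATA box letters in Spp1 and Krt8. Those letters lay 204 to 199 bases before the start in Spp1 and 106 to 99 in Krt8. Whether they act as a TATA box there was not tested. Over the 28 members with an entry, the kappaB consensus was found in 5 (17.9%), AP-1 in 4 (14.3%), STAT in 4 (14.3%) and the TATA box letters in 12 (42.9%). Over all 33465 promoter windows of the same length the shares were 6.33%, 6.34%, 7.67% and 12.9%. A match describes the letters only.

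Among the intermediate filament genes, the keratin partners Krt18 and Krt8 had unlike differences. Keratins 8 and 18 pair with each other in the filaments of simple epithelia, and their genes lie next to each other on chromosome 7 of GRCr8. Krt18 had levels of 3.44, 5.13 and 4.41 in phenylbutazone 1, 2 and 3, against 3.10, 2.87 and 2.78 in vehicle 1, 2 and 3. All treated animals lay above all vehicle animals, phenylbutazone 1 by the least, and the difference was 1.41 ± 0.41, 2.67-fold (limma adjusted p = 0.307). The 2 further Krt18 probes gave 1.42 and 1.30, and the difference against vehicle 3 was 1.55.

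Krt8 stood at 1.97, 2.35 and 2.52 in phenylbutazone 1, 2 and 3, against 2.19, 2.23 and 2.65 in vehicle 1, 2 and 3. The groups overlapped throughout, and the difference of -0.08 had an interval from -0.55 to 0.39. It was -0.37 against vehicle 3 and turned to 0.064 after normexp background correction. With each gene taken as its deviation from the vehicle mean, Krt18 minus Krt8 was 0.92, 2.22 and 1.34 in phenylbutazone 1, 2 and 3, against 0.35, 0.08 and -0.42 in vehicle 1, 2 and 3. This unequal change of 1.49 units had a two-sided exact permutation p of 0.1, the smallest that 3 against 3 animals allow, and 0.175 after Benjamini-Hochberg adjustment over the 7 gene pairs compared, so it could not pass at 0.05. Of those 7 pairs, 4 reached the same p, the others being Fgg and Fga, Spp1 and Cd44, and Lcn2 and Havcr1. The Fgg pair carries no weight, because Fgg passed the filter through the group where it is high. How often pairs of other genes reach this p was not computed, so the count of 4 is a description only.

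Krt7, which encodes the type II keratin of duct epithelia, was among the most even members, at 4.18 to 4.22 in phenylbutazone and 4.04 to 4.28 in vehicle, with a difference of 0.05 (interval -0.20 to 0.30). It turned to -0.018 after quantile normalization. Krt19, which encodes the smallest acidic keratin, ranged from -1.99 to -0.52 in phenylbutazone and from -2.87 to 0.03 in vehicle. The highest value of Krt19 was in vehicle 1, so the difference of 0.56 ± 0.79 rested on widely spread animals.

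Vim, which encodes vimentin, the filament protein of mesenchymal cells that dedifferentiated tubule cells are known to regain, stood at 1.16, 1.11 and 1.20 in phenylbutazone 1, 2 and 3, against 0.83, 1.05 and 1.35 in vehicle 1, 2 and 3. The treated animals lay within the vehicle range. The difference of 0.08 had an interval from -0.28 to 0.44, was -0.19 against vehicle 3 and turned to -0.048 after normexp background correction.

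The 3 fibrinogen chain genes, whose products are joined into one plasma protein and which are known to be made by injured tubules as well as by liver, are neighbours on chromosome 2 of GRCr8. In all 3 the highest value was in phenylbutazone 3. Fgb, the beta chain, had levels of -0.30, -0.65 and 0.92 in phenylbutazone 1, 2 and 3, against -0.58, -0.42 and -1.14 in vehicle 1, 2 and 3, with a difference of 0.70 ± 0.43 (limma adjusted p = 0.544). Phenylbutazone 2 lay below vehicle 1 and 2. Without phenylbutazone 3 the Fgb difference was 0.24, and against vehicle 3 it was 1.13.

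Fgg, the gamma chain, had levels of -5.12, -4.74 and -3.48 in phenylbutazone 1, 2 and 3, against -6.97, -5.13 and -5.85 in vehicle 1, 2 and 3. Its probe cleared the background on 3 of 3 arrays of treated animals but on 1 of 3 vehicle arrays, so its difference of 1.54 ± 0.59 (limma adjusted p = 0.391) is uncertain, and the groups were separated by 0.011 units. After normexp background correction the Fgg difference was 0.37, and the unadjusted p was 0.125 with limma, against 0.0398 in the main setting. Fga, the alpha chain, ranged from 0.19 to 1.62 in phenylbutazone and from 0.26 to 0.71 in vehicle. Its difference was 0.33 ± 0.37, and -0.09 without phenylbutazone 3.

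Annexins bind membrane phospholipids in the presence of calcium, and all 4 had means slightly higher in phenylbutazone, by 0.01 to 0.39 units. Anxa2 had levels of 3.93, 4.07 and 4.07 in phenylbutazone 1, 2 and 3, against 3.62, 3.65 and 3.64 in vehicle 1, 2 and 3. On this probe the groups were tight and apart, with SDs of 0.082 in phenylbutazone and 0.018 in vehicle. The difference was 0.39 ± 0.09, 1.31-fold (limma adjusted p = 0.276), and 0.38 against vehicle 3, while a further Anxa2 probe gave 0.18. On that probe the groups overlapped, at 2.15 to 2.25 in phenylbutazone, against 1.85 to 2.30 in vehicle, and vehicle 3 lay above all treated animals.

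Anxa5, which binds phosphatidylserine, had levels of 1.97, 2.05 and 2.11 in phenylbutazone 1, 2 and 3, against 1.83, 1.73 and 1.85 in vehicle 1, 2 and 3. The groups did not overlap, and the difference was 0.24 ± 0.10 (limma adjusted p = 0.394). Anxa1, the glucocorticoid-induced annexin, differed by 0.28 ± 0.18, with vehicle 3 the lowest animal at 2.91. On a further Anxa1 probe the groups did not overlap, at 3.27 to 3.49 in phenylbutazone and 3.11 to 3.25 in vehicle. Vehicle 2 was the lowest animal on that probe, and the difference was 0.23. Anxa3 differed by 0.01 (interval -0.29 to 0.31), and its 3 probes gave 0.01, -0.19 and 0.27, so that no direction can be given.

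S100 proteins are small calcium-binding dimers, and all 6 members of the family had higher means in phenylbutazone. They fell into evenly separated genes and genes that varied between animals. S100a11 had levels of 1.38, 1.65 and 1.61 in phenylbutazone 1, 2 and 3, against 0.85, 1.06 and 0.95 in vehicle 1, 2 and 3. The difference was 0.59 ± 0.12, 1.51-fold (limma adjusted p = 0.234), and 0.59 against vehicle 3. S100a6, which encodes calcyclin, had levels of 3.17, 3.32 and 3.29 in phenylbutazone 1, 2 and 3, against 2.72, 2.87 and 2.54 in vehicle 1, 2 and 3. Its difference was 0.55 ± 0.12, 1.47-fold (limma adjusted p = 0.258), and 0.72 against vehicle 3. In both genes all treated animals lay more than 0.3 units above all vehicle animals.

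S100a10, whose product forms a complex with annexin A2, and S100a4, a gene also of fibroblasts and leukocytes, differed by 0.26 ± 0.20 and 0.30 ± 0.19, and by 0.68 and 0.65 against vehicle 3. In both, vehicle 3 was the lowest animal, at 1.87 for S100a10 and 1.05 for S100a4, while another vehicle animal lay inside the treated range (vehicle 1 and 2 for S100a10, vehicle 2 for S100a4). On a further S100a4 probe the groups did not overlap, at 0.985 to 1.34 in phenylbutazone and 0.688 to 0.961 in vehicle. The difference on that probe was 0.27. Although S100a10 and S100a11 are neighbours on chromosome 2, only S100a11 was free of overlap. The difference between these neighbours was not tested.

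S100a8 and S100a9, whose products form calprotectin and are abundant in neutrophils, ran together from animal to animal. S100a9 had levels of -1.29, -1.86 and -0.89 in phenylbutazone 1, 2 and 3, against -1.95, -0.91 and -2.57 in vehicle 1, 2 and 3. S100a8 ranged from -3.34 to -2.15 in phenylbutazone and from -4.04 to -2.31 in vehicle, with phenylbutazone 3 the highest, vehicle 2 the next and vehicle 3 the lowest, and S100a9 had the same 3 animals in those places. The differences of 0.47 ± 0.46 for S100a9 and 0.34 ± 0.50 for S100a8 lay within that spread, and against vehicle 3, the lowest animal, they were 1.23 and 1.25 in the same order. Of 10 neutrophil markers with a probe, Elane, Ltf, Mmp8 and Ngp were not well above background on any array. The summed signal of the 5 tested was 0.886 to 1.23 times the 75th percentile in phenylbutazone and 0.858 to 1.36 in vehicle. The largest part of that sum on every array was Ly6g6c, at log2 levels of -1.30 to -0.07. Camp, Csf3r, Mmp9 and Fcnb lay lower, at -5.12 to -2.08. The sum thus follows 1 gene more than the list and cannot stand for neutrophils.

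Among surface molecules and lectins, Lgals3, which encodes galectin-3, a lectin of macrophages and of several tubule segments, separated the groups most clearly. It had levels of 2.86, 2.95 and 3.20 in phenylbutazone 1, 2 and 3, against 2.43, 2.39 and 2.02 in vehicle 1, 2 and 3. The difference was 0.72 ± 0.16, 1.65-fold (limma adjusted p = 0.259), and 0.98 against vehicle 3. All treated animals lay at least 0.43 units above all vehicle animals. Cd44, the hyaluronan and osteopontin receptor gene, had levels of -1.39, -1.01 and -0.61 in phenylbutazone 1, 2 and 3, against -1.58, -1.33 and -1.90 in vehicle 1, 2 and 3. Phenylbutazone 1 overlapped with vehicle 2, and the difference was 0.60 ± 0.24 (limma adjusted p = 0.399). Of the other 5 Cd44 probes, 3 were not well above background on any array and the remaining ones gave 0.19 and 0.11.

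Tnfrsf12a, which encodes the TWEAK receptor Fn14, was high in phenylbutazone 2 and 3 at 1.82 and 1.89 and in vehicle 2 at 1.35, and low in phenylbutazone 1 at 0.63 and in vehicle 1 and 3 at 0.42 and 0.52. The mean difference was 0.68 ± 0.42. Gpnmb, a glycoprotein gene of phagocytic cells, differed by 0.49 ± 0.29. Vcam1, the leukocyte adhesion receptor gene that marks tubule cells failing to repair, differed by -0.19 (interval -0.66 to 0.29) and by 0.22 against vehicle 3. Neither Gpnmb nor Vcam1 separated the groups.

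The summed signal of macrophage and monocyte markers overlapped between the groups. Over the 14 tested genes it was 96.2 to 127 in phenylbutazone and 95.6 to 127 in vehicle. The largest part of that sum on every array was Lyz2, at log2 levels of 5.87 to 6.39, so the sum follows 1 gene more than the list. By gene, 8 were higher and 6 lower, with a median difference of 0.082. At an unadjusted p under 0.05 the counts were 0 higher and 2 lower, the Fc receptor gene Fcgr3a at -0.57 and the complement gene C1qc at -0.32, beside 6.24% of all genes lower at that threshold.

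Intercalated cell markers, by contrast, were higher in the same group. All 7 had higher means, beside 52.8% of all genes, 3 of them were at an unadjusted p under 0.05, beside 5.97% of all genes higher at that threshold, and their summed signal reached 188 to 231 in treated animals, against 126 to 168 in vehicle animals. The chloride-bicarbonate exchanger gene Slc26a4 differed by 0.68 ± 0.18 and the proton pump subunit genes Atp6v1g3 and Atp6v0d2 by 0.57 ± 0.17 and 0.32 ± 0.13. The 7 erythrocyte markers had higher means with a median of 0.46, but 0 of 7 were at an unadjusted p under 0.05 (limma; 0 after adjustment) and 0 were free of overlap. Their sums overlapped too, at 579 to 922 in treated animals, against 494 to 677 in vehicle animals. Thick ascending limb cells make Spp1 and Egf, and the sums of their 7 markers lay at 514 to 618 in treated animals, against 320 to 507 in vehicle animals with vehicle 3 the lowest. The part of these cell types in the members' differences was not tested.

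**Figure D3:**
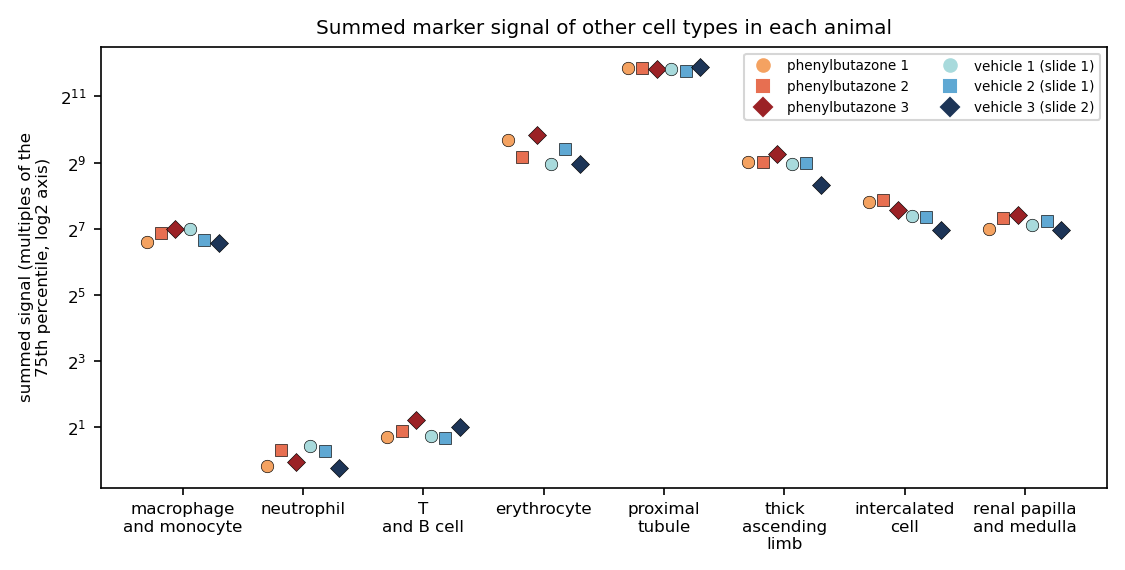
Summed signal of marker genes of other cell types and tubule segments in each animal (vertical axis, multiples of the array's 75th percentile on a log2 axis; 3 phenylbutazone and 3 vehicle arrays, 1 point each). Intercalated cell and thick ascending limb sums do not overlap between the groups, with vehicle 3 lowest in both, while macrophage, neutrophil and proximal tubule sums do overlap. The largest part of the neutrophil sum is Ly6g6c and that of the macrophage sum is Lyz2.

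The remaining members are intracellular. Sprr1a, a cornified envelope precursor gene that stressed epithelia are known to induce, had levels of -2.17, -3.19 and -2.504 in phenylbutazone 1, 2 and 3, against -3.53, -3.46 and -3.83 in vehicle 1, 2 and 3. The groups did not overlap, with phenylbutazone 2 the nearest to vehicle, and the difference was 0.99 ± 0.27, 1.98-fold (limma adjusted p = 0.303), and 1.21 against vehicle 3. Its further probe was not well above background on any array. Sox4, a transcription factor gene of developing epithelia, had levels of 1.08, 1.02 and 1.03 in phenylbutazone 1, 2 and 3, against 0.92, 0.84 and 0.49 in vehicle 1, 2 and 3. All treated animals lay above all vehicle animals, by 0.29 ± 0.14 on average (limma adjusted p = 0.452), but the 3 further Sox4 probes gave 0.20, 0.17 and -0.06.

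Rgn had the same low animals as Tff3, at 1.56 in phenylbutazone 1 and 1.28 in vehicle 3, against 2.55 to 3.22 in the other phenylbutazone and 2.68 to 2.74 in the other vehicle animals. Its difference was 0.21 ± 0.55, and 1.16 against vehicle 3. Tmsb10, which encodes an actin-sequestering thymosin, differed by 0.13 ± 0.24, and by 0.65 against vehicle 3, its lowest animal at 2.35.

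Animal by animal, the members' differences were carried unequally. The median deviation of the 34 members from the vehicle mean was 0.18, 0.33 and 0.85 in phenylbutazone 1, 2 and 3, against 0.024, 0.13 and -0.21 in vehicle 1, 2 and 3. Phenylbutazone 3 held the highest of the 6 values in 18 members (52.9%), beside 17.9% of all genes, and the lowest in 0. Vehicle 3 held the lowest value in 17 members of 34, beside 34.3% of all genes. Phenylbutazone 1 was the highest in 2 members and phenylbutazone 2 in 6.

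The families differed in how far each treated animal departed from the vehicle mean. In phenylbutazone 3 the family median was 1.63 for fibrinogen chains, 1.26 for secreted markers, 0.93 for surface molecules and lectins, 0.62 for S100 proteins, 0.34 for annexins and 0.16 for keratins and vimentin. For annexins the medians in phenylbutazone 2 and 3 were close, at 0.32 and 0.34, against 0.13 in phenylbutazone 1. Annexins and secreted markers were 2 of the 3 families in which all 3 treated medians lay above all 3 vehicle medians, the secreted markers at 0.24, 0.46 and 1.26 in phenylbutazone 1, 2 and 3 and -0.092, 0.075 and 0.14 in vehicle 1, 2 and 3. S100 proteins were the third of them, at 0.34, 0.23 and 0.62 in phenylbutazone and 0.054, 0.20 and -0.39 in vehicle. The members that did not overlap between groups were 4 of 7 secreted markers, 1 of 3 fibrinogen chains, 1 of 5 keratins and vimentin, 2 of 4 annexins, 2 of 6 S100 proteins, 1 of 5 surface molecules and lectins and 2 of 4 others. The fibrinogen chain among them was Fgg, which carries no weight because it passed the filter through the group where it is high. Over all genes 21.5% were free of overlap in either direction. In families of 3 to 7 members these counts are too small to set against that share.

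**Figure D4:**
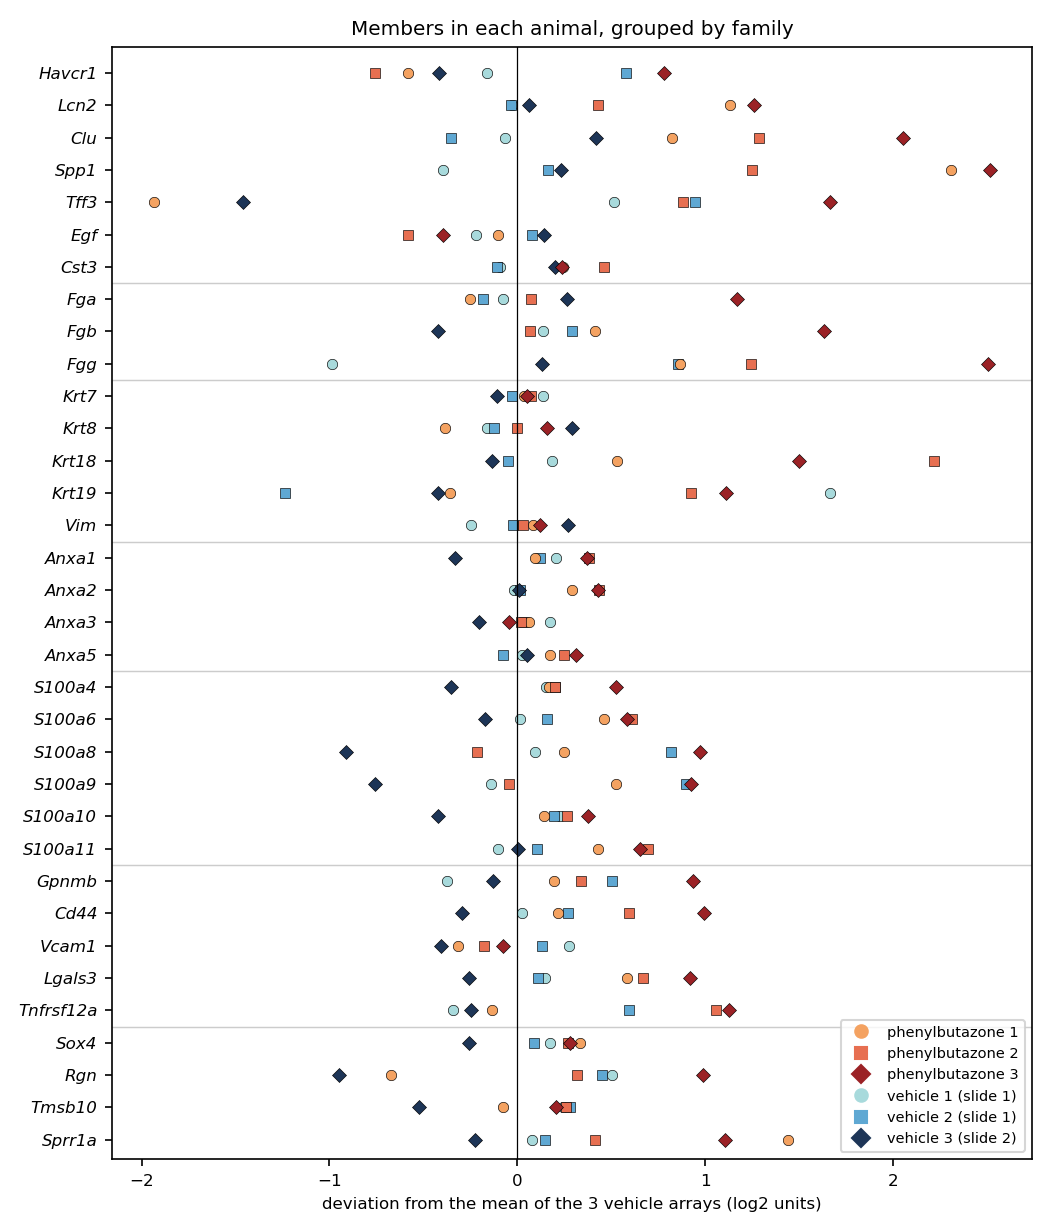
Deviation of each of the 34 members from its vehicle mean (horizontal axis, log2 units) in the 6 animals, with families separated by grey lines. Red and orange points are the 3 phenylbutazone animals and blue points the 3 vehicle animals, and phenylbutazone 3 (dark red) is the highest point in 18 rows.

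**Figure D5:**
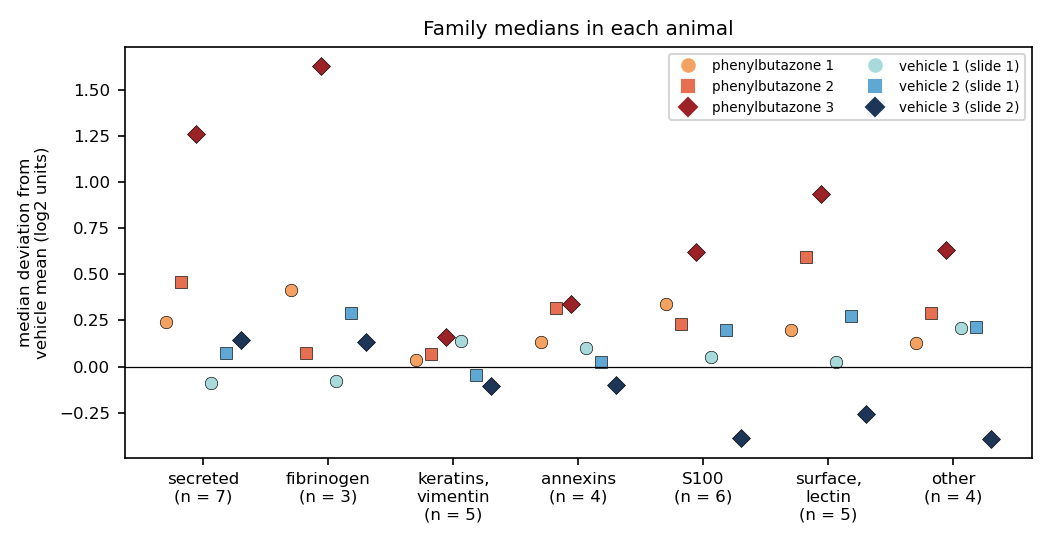
Median deviation from the vehicle mean (vertical axis, log2 units) over the members of each family in each animal, with the number of members tested. In phenylbutazone 3 the medians run from 0.16 for keratins and vimentin to 1.63 for fibrinogen chains.

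Relatives outside the member list gave a mixed picture. Of 7 further keratin genes tested 2 were higher and 5 lower, with a median difference of -0.23. The epidermal keratin genes Krt1 (-0.52 ± 0.12) and Krt5 (-0.45 ± 0.13) lay lower in all treated animals than in any vehicle animal. Krt5 had a low signal, at -5.29 to -4.61 over the 6 arrays. In this list 3 of 7 genes were free of overlap, beside 21.5% of all genes in either direction, too few to set against that share. The 6 further annexin genes had a median of -0.16, which turned to 0.32 against vehicle 3, and 0 at an unadjusted p under 0.05 (limma; 0 after adjustment). The 7 further genes with S100 symbols included the gene of an S100P-binding protein, which is not itself an S100 protein. Of the 7, S100a1 stood at 0.49 ± 0.12, S100a5 at -0.43 ± 0.15 and S100a16 at -0.24 ± 0.09. Each was at an unadjusted limma p under 0.05, and the limma adjusted p values were 0.283, 0.368 and 0.391. Over all genes 5.97% were higher and 6.24% lower at that unadjusted threshold.

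Among 31 other injury and repair genes tested, 21 were higher and 10 lower, with a median difference of 0.13. At an unadjusted p under 0.05 there were 5 higher and 1 lower, beside 5.97% and 6.24% of all genes, and 0 passed the limma adjusted threshold. The integrin gene Itgb6, which activates latent TGF-beta, stood at 0.81 ± 0.15 and the metalloproteinase inhibitor gene Timp1 at 0.47 ± 0.11. Dcdc2, a microtubule-binding doublecortin family gene, stood at 0.43 ± 0.11. All 3 were free of overlap, as were 7 of the 31 genes and 21.5% of all genes in either direction. For these 3 genes limma gave adjusted p values of 0.219, 0.271 and 0.297. In the comparison within slide 2 they stood at 0.84, 0.51 and 0.45.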

How the data were processed

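Renal cortex RNA of 6 rats was measured on 6 one-colour arrays. Per the file headers and the submitters' processing notes, the authors read the images with Agilent Feature Extraction 10.7, and the deposited intensity values are background-subtracted, detrended and on each array's own scale. In the value table the authors deposited each value is a ratio, found here to be the processed intensity over about the array's 75th percentile. Control spots and 40 probes with an outlier flag were left out, log2 intensities were scaled to each array's 75th percentile, and a probe was kept if 3 or more of the 6 arrays showed it well above background. A gene was represented by its probe of highest mean level, and names came from RefSeq (GRCr8) for 28206 of 61537 probes. The two-sided fit was limma 3.58.1 (lmFit, eBayes) in R 4.3.3 over 29938 genes with Benjamini-Hochberg adjustment, tested on simulated data. The number of arrays, 3 per group, limits precision.

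Alternatives were scaling to the median, normexp (on the median spot signal), quantile normalization, the deposited table, 2 other filters, the mean over probes, a variance trend with intensity, 1 replicate fewer, blocks for replicate number or for slide (fixed and random), and slide 2 on its own. The members, their families, the other gene lists and the rule for named genes were chosen with earlier results of these data known. By that rule every member was described, and values of every array were given for members differing by at least 2 standard errors or 1 log2 unit and for 8 fixed members. At most 3 genes of another list were named, by smallest p, apart from the neutrophil list and Lyz2 of the macrophage list. Tff3, Tnfrsf12a, Rgn and S100a9 were given by array after their values were seen.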

Additional observations from a re-analysis of the deposited data

How the results depend on the processing

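With 3 arrays per group and treated and vehicle animals mostly on different slides, only large and even differences could be told from the spread, and 0 members passed the adjusted threshold in any of the 18 alternatives (limma). The median difference of the members was 0.67 with slide as a fixed block and with slide 2 alone, and 31 members were free of overlap on slide 2 alone, where the vehicle group is 1 array and 72.6% of all genes were. Leaving out each replicate gave 9 to 13 members at an unadjusted p under 0.05 (7.40% to 22.0% of all genes), 14 to 18 without overlap (27.6% to 43.7% of all genes), 0 to 0 past the adjusted threshold and a median of 0.24 to 0.52. The replicate numbers did not pair the animals (correlations of deviations -0.030, 0.011 and -0.074 for numbers 1, 2 and 3), and with the replicate block 10 members were at an unadjusted p under 0.05 and the median was 0.33.

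The sign changed for several members, some of them, such as Krt19, S100a8 and Fga, with main differences of 0.56, 0.34 and 0.33. With slide as a fixed block or slide 2 alone Havcr1 stood at 0.23, Vim at -0.19 and Vcam1 at 0.22, and with slide as a random block at 0.079, -0.096 and 0.073. After normexp Fgg stood at 0.37, Krt8 stood at 0.064, Vim at -0.048 and Anxa3 at -0.16 and after quantile normalization Krt7 at -0.018. Leaving out 1 replicate at a time gave -0.67 (without phenylbutazone 3) to 0.10 (without vehicle 2) for Havcr1, -0.53 to 1.27 for Tff3 (without phenylbutazone 3 and 1), -0.091 to 0.62 for Fga (the same animals), -0.0022 to 0.12 for Krt7 (without vehicle 3 and 1), -0.20 to 0.078 for Krt8 (without phenylbutazone 3 and 1), -0.062 to 1.39 for Krt19 (without vehicle 2 and 1), -0.046 to 0.21 for Vim (without vehicle 1 and 3), -0.090 to 0.098 for Anxa3 (without vehicle 3 and 1), -0.12 to 0.74 for S100a8 (without vehicle 3 and 2), -0.27 to 0.65 for Rgn (without vehicle 3 and phenylbutazone 1) and -0.13 to 0.27 for Tmsb10 (without vehicle 3 and 2). The cause of these changes was not tested.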

Other observations

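Among genes of other tubule segments, chosen after their values were seen from the lists of markers, the calcium channel gene Trpv5 of the distal tubule had levels of -1.83, -0.84 and -0.93 in phenylbutazone 1, 2 and 3, against -2.51, -2.28 and -2.16 in vehicle 1, 2 and 3. Its difference was 1.12 ± 0.28 (limma adjusted p = 0.284). The myo-inositol transporter gene Slc5a3, which responds to hypertonicity, stood at 0.88 ± 0.33 and the lactate transporter gene Slc5a12 of the proximal tubule at 0.36 ± 0.10, both without overlap between the groups, with limma adjusted p values of 0.378 and 0.307. Over all genes 12.1% were higher in phenylbutazone without overlap.

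As lists, the medians of segments and cell types are given with the main difference first and the difference against vehicle 3 alone second. They were 0.0037 and -0.035 for the proximal tubule (18 genes), -0.015 and 0.013 for podocytes (7 genes), 0.016 and 0.24 for the distal tubule (5 genes) and 0.14 and 0.049 for collecting duct principal cells (7 genes). Intercalated cells (7 genes) had 0.16 and 0.49, the thick limb (7 genes) 0.16 and 0.64, papilla and medulla (7 genes) 0.11 and 0.23, and erythrocytes (7 genes) 0.46 and 0.52. The sign turned for urothelium (4 genes) at -0.19 and 0.48, neutrophils (5 genes) at -0.085 and 0.23, fibroblasts and myofibroblasts (8 genes) at -0.041 and 0.11, and T and B cells (10 genes) at 0.061 and -0.16, as it did for the proximal tubule and podocytes. Endothelium (9 genes) had -0.19 and -0.26, and further filament and actin-binding genes (14 genes) had -0.013 and -0.12.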
